A study of Mus musculus with 12 samples.

Results

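The genes described here are 10 well-known members of the ATF4 arm of the amino acid response: Atf4 itself, the transcription regulators Atf5, Ddit3, Trib3 and Nupr1, the stress effectors Ddit4, Sesn2 and Chac1, and the biosynthetic enzymes Asns and Psat1. They were taken by symbol from the deposited table of counts per gene, which lists 55291 symbols, and all 10 were found. The study asked how a collagen matrix alters mouse T cells in culture. CD8+ T cells were taken from spleen and lymph nodes (LNs) of wild-type (WT) male mice, and RNA was sequenced in 12 libraries, 3 in each of 4 groups. The naive group is cells whose RNA was taken directly on day 0. The remaining cells received plate-bound anti-CD3 together with soluble CD28 for 2 days and rmIL-2 for 1 further day. They then spent 24 h in media, in a bovine collagen gel or in a rat tail collagen gel, each gel at 2 mg/mL, before RNA was taken on day 4. All 4 groups shared the WT genotype and the tissue of origin, and the 3 day 4 groups shared the activation and expansion. No source used here gives the age of the mice. No label says whether libraries of the same number came from the same mouse, so p-values measure the spread between these libraries.

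When amino acids run short or unfolded protein collects in the endoplasmic reticulum, kinases such as GCN2 and PERK phosphorylate the translation factor eIF2α. General translation then slows, while translation of the Atf4 mRNA rises, so that the ATF4 protein can be abundant without a change in its own mRNA. ATF4, usually paired with a C/EBP family protein, switches on genes for amino acid synthesis, transport and tRNA charging, and also genes that restrain growth or favour cell death. Activated T cells, which need large amounts of amino acids to divide, are known to use this arm.

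ATF4 and its partners are known to bind composite C/EBP-ATF elements, whose core is written here as TGATGNAA. A match to these letters on either strand, wholly within the 250 bases before an annotated start, was present for 3 of the 10 genes, Asns, Chac1 and Nupr1, against 3.91% of the 27025 genes with a promoter sequence in RefSeq (build GRCm38.p6). These 3 stretches are shown because they hold the match, and capitals mark the matched bases on the strand of the gene, read 5′ to 3′. In Asns the match began 23 bases before the start and lay on the strand of the gene. In Chac1 it began 193 bases before the start and in Nupr1 110 bases before it, in both on the opposite strand, where it reads as the reverse complement.
Asns, chr6:7693214-7693243, minus strand: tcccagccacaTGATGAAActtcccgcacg
Chac1, chr2:119351024-119351081, plus strand: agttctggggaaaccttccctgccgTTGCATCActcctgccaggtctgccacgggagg
Nupr1, chr7:126625562-126625591, minus strand: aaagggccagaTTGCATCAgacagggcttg
The Chac1 and Nupr1 stretches held the same 8 bases. The Asns and Nupr1 matches lie within an exon of another transcript in the GENCODE M21 annotation, so their flanks are kept short. Trib3 had 1 match, which reached past its start and so was outside the searched bases. A match is a run of letters and not a measured binding site.

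The libraries held between 28483064 and 53138362 counts. Levels are given as CPM, counts scaled to a common library total, with a correction for composition (TMM), and a gene was called higher or lower when its edgeR quasi-likelihood test gave a Benjamini-Hochberg adjusted p under 0.05 over all genes tested. All 5 CD8 T cell markers (Cd8a, Cd8b1, Cd3d, Cd3e and Cd3g) were detected in every group. Their sum was 2941 to 3483 CPM in naive cells, 2173 to 2444 CPM in media, 2206 to 2422 CPM in bovine collagen and 1817 to 2045 CPM in rat tail collagen. Cd3d and Cd3g were lower in rat tail collagen than in media, with log2 differences of -0.57 and -0.66, and the other 3 were not called. The share of counts on ribosomal RNA genes was 4.45% to 4.72% in media but reached 11.9% in bovine collagen 2, 10.96% in rat tail collagen 1 and 13.2% in rat tail collagen 3. The nuclear RNA Malat1 took 1.11% to 1.47% of counts in rat tail collagen and 0.179% to 0.295% in media. Markers of other cells moved in both directions between media and rat tail collagen. The summed level of 7 myeloid markers was 9.11 to 9.94 CPM in media, 17.5 to 24.7 CPM in rat tail collagen and 34.6 to 126 CPM in naive cells, with Clec9a at 0 in all day 4 libraries. Of the 3 that could be tested in rat tail collagen against media, Cd68 and Cd14 were higher and Itgam lower. Cd14 passed the filter on low counts only through its rat tail libraries, so it had to differ. The sum of 6 markers of NK, gamma-delta and CD4 T cells, all 6 detected, was 38.0 to 55.2 CPM in media, below the 75.6 to 87.0 CPM of rat tail collagen. Of 5 tested, Zbtb7b and Klrb1c were higher and Trdc lower, and Cd4 and Foxp3 were not called. Foxp3 was at 3.59, 4.00 and 19.4 CPM in rat tail collagen 1, 2 and 3 (log2 2.25 against media). It was also highest in number 3 of media, at 4.23 CPM, and of bovine collagen, at 4.41 CPM. The sum of 5 B cell markers was 12.6 to 15.4 CPM in media and 7.81 to 9.17 CPM in rat tail collagen, and it is mostly Cd79b, which was lower, while Cd79a, the other one tested, was higher. The sum of 6 stromal and endothelial markers was 131 to 147 CPM in media and 73.7 to 79.7 CPM in rat tail collagen, and it is nearly all Pecam1, which was lower. The other 3 tested, Col1a1, Fn1 and Pdgfrb, were higher, Col1a1 going from 0.311 ± 0.0504 CPM in media to between 3.84 and 4.88 CPM in rat tail collagen (SD, n = 3). Fn1 also passed the filter only through its rat tail libraries, so it had to differ. The sum of 6 red cell and platelet markers overlapped, at 2.86 to 4.26 CPM in media and 3.05 to 4.37 CPM in rat tail collagen, although Alas2, at 0 in media, was at 0.958 to 2.40 CPM in rat tail collagen and Pf4 was lower. The part of any of these in the results below was not tested except where libraries are left out.

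The 10 genes spanned a wide range of levels. Per kilobase of exon, the mean level in media ran from 58.0 CPM for Ddit4, 37.9 CPM for Atf4 and 29.9 CPM for Psat1 down to 0.510 CPM for Chac1 and 0.0850 CPM for Nupr1. The plot of levels by library shows 3 broad patterns. Atf4 and Ddit3 were highest in naive cells. Asns, Psat1 and Trib3 were low in naive cells and high in all day 4 groups. Atf5, Chac1, Nupr1 and Sesn2 were highest in rat tail collagen, and the Ddit4 groups overlapped apart from a narrow gap between the collagens.

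**Figure D1:**
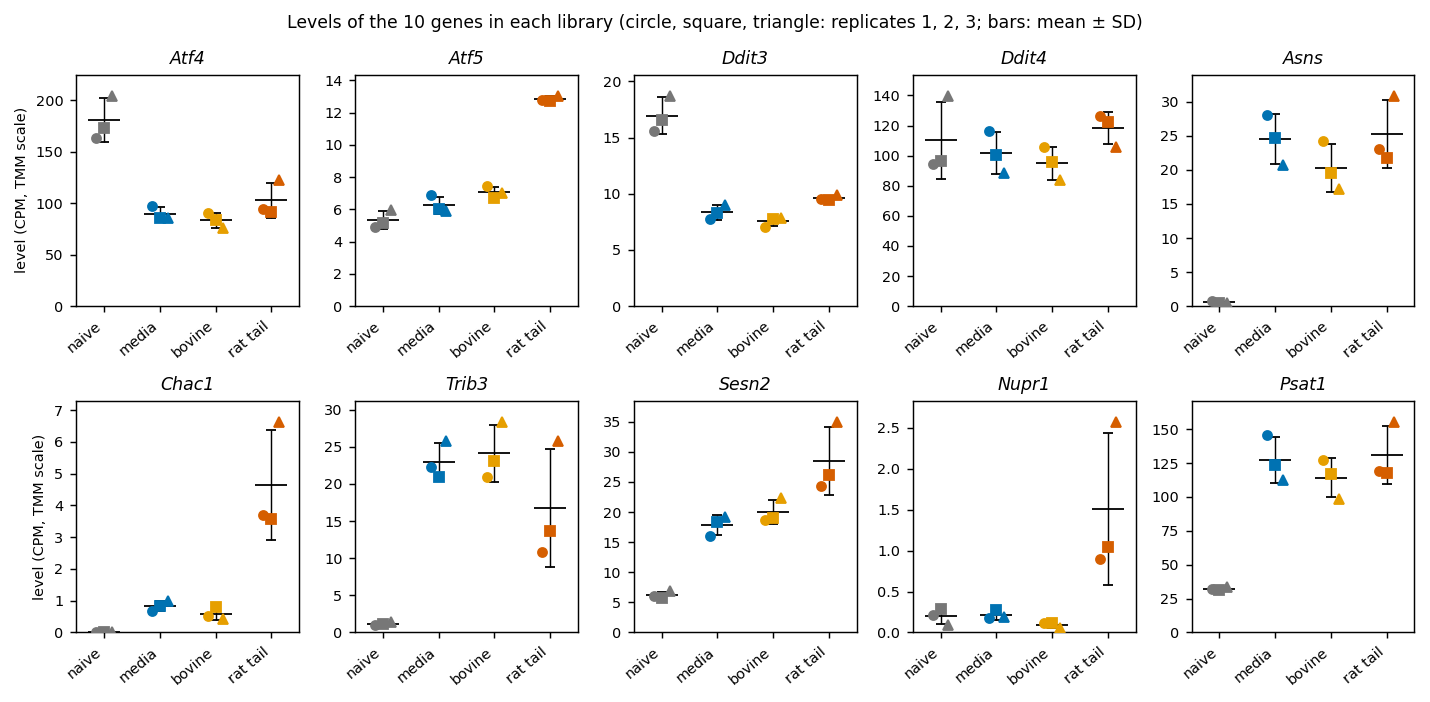
Level in CPM of each of the 10 genes (1 panel a gene, linear axis from 0) in the naive, media, bovine collagen and rat tail collagen groups; symbols are the 3 libraries and bars the mean ± SD. The 3 rat tail libraries of Atf5 sit between 12.7 and 13.1 CPM, above every other library, while Atf4 is highest in naive cells.

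Media against naive cells asks what 4 days of culture with activation did to these genes. Among the 9 genes that could be tested, 5 rose (Asns, Trib3, Chac1, Psat1 and Sesn2) and 2 fell (Atf4 and Ddit3), while Atf5 and Ddit4 did not pass the test. In this comparison 31.6% of the 18610 genes tested were higher and 29.2% lower, 60.8% in all, and the groups did not overlap in 67.6%. The median log2 difference was 1.59 over the 9 genes and 0.00 over all genes. Chac1 passed the filter on low counts only through its media libraries, so it had to differ once it was tested. Nupr1 was too low to test, at 0.198 ± 0.0966 CPM in naive cells and 0.214 ± 0.0556 CPM in media (SD, n = 3). Fewer cells of a type and less RNA per cell cannot be told apart in bulk libraries such as these.

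Atf4 mRNA (chromosome 15, 80255184 to 80257541, plus strand, GRCm38) was measured at 163, 173 and 204 CPM in the 3 naive libraries and at 96.9, 85.7 and 85.2 CPM in media. Every naive library was above every media library. The log2 difference was -0.95 (SE 0.0952, adjusted p = 2.95e-05). Ddit3 (chromosome 10, 127290774 to 127296288, plus strand), which encodes the pro-apoptotic factor CHOP, was at 15.6, 16.6 and 18.7 CPM in naive cells and at 7.72, 8.31 and 9.02 CPM in media. It fell by 0.96 on the log2 scale (SE 0.110, adjusted p = 6.74e-05). The symbol Ddit3 covers 2 gene models, and its exons share 68 bases with Mars on the opposite strand. Whether the counting used strand is not stated in the labels.

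The enzymes showed the opposite direction. Asns (chromosome 6, 7675169 to 7693254, minus strand), the enzyme that makes asparagine, stood at 0.735, 0.472 and 0.410 CPM in naive cells and at 28.1, 24.7 and 20.7 CPM in media. That is 47.5-fold higher (log2 5.57, SE 0.213, adjusted p = 5.28e-08). Psat1 (chromosome 19, 15904678 to 15947337, minus strand), an enzyme of serine synthesis, was at 32.3, 31.5 and 33.5 CPM in naive cells and at 146, 124 and 113 CPM in media, 4.10-fold higher (adjusted p = 2.79e-07). For both enzymes every media library was above every naive library.

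Among the regulators and effectors, Trib3 (chromosome 2, 152337422 to 152344032, minus strand), a pseudokinase that feeds back on ATF4, was at 0.998, 1.08 and 1.47 CPM in naive cells and at 22.3, 21.0 and 25.8 CPM in media, 20.2-fold higher (adjusted p = 4.38e-08). Sesn2 (chromosome 4, 132492032 to 132510501, minus strand), a leucine-binding brake on mTORC1, was at 5.99, 5.72 and 6.85 CPM in naive cells and at 16.0, 18.3 and 19.1 CPM in media, 3.01-fold higher (adjusted p = 4.22e-06). Neither gene's groups overlapped. Chac1 (chromosome 2, 119351229 to 119354381, plus strand), an enzyme that degrades glutathione, had 1 count over the 3 naive libraries and 118 over the 3 media libraries, a ratio of 97.5 with a 95% counting interval of 17.2 to 3882. The Chac1 interval covers counting error only. Ddit4 (chromosome 10, 59949669 to 59951834, minus strand), another inhibitor of mTORC1, was at 110.1 ± 25.9 CPM in naive cells and 102 ± 14.1 CPM in media (SD, n = 3), a log2 difference of -0.05 with a 95% interval of -0.40 to 0.30. Atf5 (chromosome 7, 44812256 to 44816658, minus strand), a transcription factor that like ATF4 is under translational control, was at 5.33 ± 0.542 CPM and 6.27 ± 0.531 CPM (SD, n = 3), a log2 difference of 0.30 (95% interval -0.01 to 0.60, adjusted p = 0.0835). When GC content and transcript length were fitted in each library and removed, Atf5 was called higher at 0.31 (adjusted p = 0.0407).

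Rat tail collagen against media asks what this gel did to cells of the same day. Chac1, Nupr1, Atf5 and Sesn2 rose, and none of the 10 genes was called lower. Asns and Psat1, which had risen with activation, differed from media by 0.03 each on the log2 scale, and Trib3 was lower in 2 of 3 rat tail libraries without passing the test. The count of 4 of 10 stands beside 29.7% of the 19392 genes tested that were higher and 28.7% that were lower, so that 58.4% of all genes were called in this comparison. The median log2 difference was 0.20 over the 10 genes and -0.01 over all genes. Nupr1 passed the filter on low counts only through its rat tail libraries, so it had to differ once it was tested. On the media and bovine libraries alone it would not have been tested, and no p is given for it.

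Chac1 was at 0.669, 0.831 and 1.01 CPM in media and at 3.71, 3.57 and 6.63 CPM in rat tail collagen. The lowest rat tail library was above the highest media library. The difference was 5.49-fold (log2 2.46, SE 0.292, adjusted p = 2.52e-05). It rests on 569 counts in rat tail collagen and 118 in media, a ratio of 5.36 with a counting interval of 4.39 to 6.59.

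Nupr1 (chromosome 7, 126623249 to 126630861, minus strand), a small stress-induced chromatin protein, was at 0.172, 0.277 and 0.192 CPM in media and at 0.898, 1.04 and 2.57 CPM in rat tail collagen. Its groups did not overlap, and rat tail collagen 3 was far above the other two. The difference was 6.88-fold (log2 2.78, SE 0.444). The counts behind it were 182 in rat tail collagen and 30 in media, a ratio of 6.75 with a counting interval of 4.57 to 10.3. Without rat tail collagen 3 the log2 differences were 2.18 for Nupr1 and 2.12 for Chac1, and Chac1 was still called.

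Atf5 was at 6.88, 6.02 and 5.90 CPM in media and at 12.8, 12.7 and 13.1 CPM in rat tail collagen. The rat tail libraries lay close together and above all media libraries. The difference was 2.04-fold (log2 1.03, SE 0.0974, adjusted p = 4.35e-06). Atf5 exons share 82 bases with Nup62 and Il4i1 on the opposite strand. Sesn2 was at 16.0, 18.3 and 19.1 CPM in media, and its rat tail libraries were at 24.2, 26.2 and 35.0 CPM. Its groups did not overlap either, and the difference was 1.59-fold (log2 0.66, SE 0.135, adjusted p = 0.00130).

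The Atf5 and Sesn2 differences moved when GC content and transcript length were fitted in each library and removed. The log2 difference of Sesn2 became 0.17 (adjusted p = 0.299), so its call was lost, and that of Atf5 became 0.46 (adjusted p = 7.34e-04). Chac1 went from 2.46 to 2.12 and Nupr1 from 2.78 to 2.73. Trib3 moved from -0.47 to -0.92 and Ddit4 from 0.21 to -0.16. The GC content of the longest transcript was 58.7% for Sesn2 and 61.7% for Atf5, the highest of the 10 genes. It was 58.2% for Trib3, 57.9% for Ddit4, 57.4% for Chac1 and 49.9% for Nupr1.

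Trib3 was at 22.3, 21.0 and 25.8 CPM in media and at 10.8, 13.6 and 25.9 CPM in rat tail collagen. Rat tail collagen 1 and 2 were below every media library, while rat tail collagen 3 was level with the highest. The log2 difference was -0.47 with a 95% interval of -1.06 to 0.12 (adjusted p = 0.153). Without rat tail collagen 3 it was -0.91 (adjusted p = 7.11e-04), and with the GC and length offsets it was -0.92 (adjusted p = 0.0149). Trib3 and Chac1, which both rose with activation, thus pointed in opposite directions in rat tail collagen 1 and 2.

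Atf4 mRNA was at 96.9, 85.7 and 85.2 CPM in media and at 94.5, 91.2 and 122.5 CPM in rat tail collagen. The groups overlapped, and only rat tail collagen 3 was above all media libraries. The log2 difference was 0.19 with a 95% interval of -0.05 to 0.44 (adjusted p = 0.159), and it was -0.12 with the GC and length offsets (adjusted p = 0.344). Ddit3 was at 7.72, 8.31 and 9.02 CPM in media and at 9.55, 9.43 and 9.85 CPM in rat tail collagen. Its groups did not overlap, as was true of 64.8% of all genes tested, and the log2 difference of 0.19 did not pass (adjusted p = 0.128). With the GC and length offsets it was 0.30 (adjusted p = 0.0184). Ddit4 was at 102 ± 14.1 CPM in media and at 118 ± 10.7 CPM with rat tail collagen (SD, n = 3), a log2 difference of 0.21 (95% interval -0.04 to 0.46, adjusted p = 0.141), which was -0.16 with the offsets (adjusted p = 0.206). Ddit4 was called higher without media 1, at 0.30 (adjusted p = 0.0428).

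The enzymes gave the smallest differences. Asns was at 28.1, 24.7 and 20.7 CPM in media and at 23.0, 21.7 and 30.9 CPM in rat tail collagen, and the groups overlapped. The log2 difference of 0.03 had a 95% interval of -0.32 to 0.38 (adjusted p = 0.892). Psat1 was at 146, 124 and 113 CPM in media and at 120, 118 and 155 CPM in rat tail collagen, with overlap. Its log2 difference of 0.03 had an interval of -0.25 to 0.32 (adjusted p = 0.855). These intervals leave room for a change of about the size measured for Ddit4 but not for one of the size measured for Chac1, Nupr1 or Atf5.

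**Figure D2:**
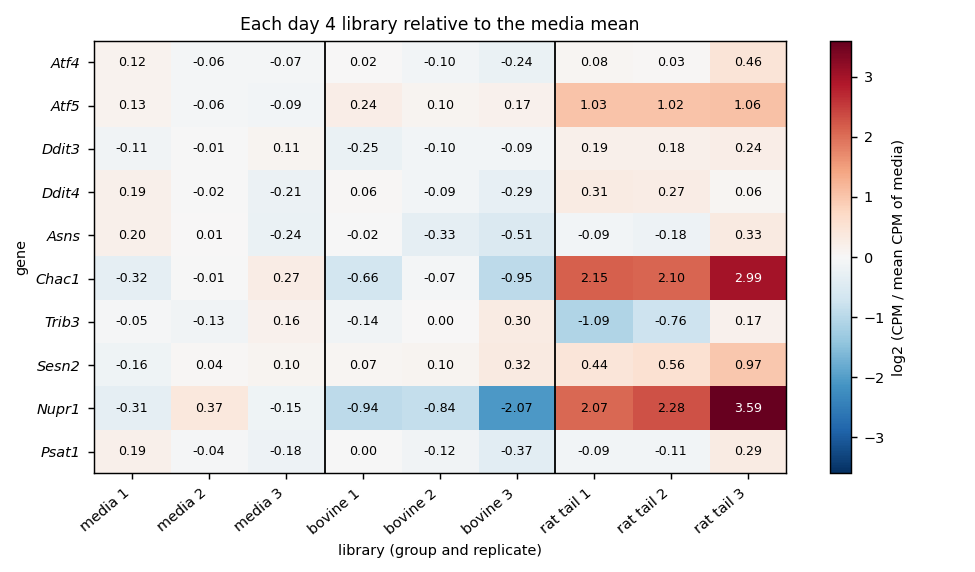
Log2 of each day 4 library's CPM over the mean CPM of media (colour, with the value printed) for the 10 genes (rows) in the 9 day 4 libraries (columns). Rat tail collagen 3 holds the highest value of its group in 9 of 10 genes, Ddit4 being the exception, and for Trib3 it is at 0.17 while rat tail collagen 1 and 2 are at -1.09 and -0.76.

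Rat tail collagen 3 was the highest of its group in 9 of the 10 genes, with Ddit4 highest in rat tail collagen 1. Rat tail collagen 3 also had the highest share of ribosomal RNA counts and the highest Foxp3 level. Leaving out the 3 libraries of highest ribosomal RNA share leaves 1 rat tail library, whose spread is assumed to be that of the other groups. The log2 differences from media were then 2.09 for Chac1, 2.27 for Nupr1, 1.01 for Atf5, 0.55 for Sesn2 and -0.76 for Trib3.

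Rat tail against bovine collagen compares the gels at the same concentration and time. In this comparison 7 of the 10 genes were called higher in rat tail collagen (Nupr1, Chac1, Atf5, Sesn2, Ddit3, Ddit4 and Atf4) and none lower, beside 28.4% of all genes tested that were higher and 26.4% that were lower, 54.7% in all. The median log2 difference was 0.33 over the 10 genes and 0.00 over all genes. This comparison uses the same rat tail libraries as the comparison with media, so the pair are not independent. Nupr1 passed the filter only through its rat tail libraries here too, so it had to differ.

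Nupr1 was at 0.112, 0.119 and 0.0509 CPM in bovine collagen, below the lowest rat tail library at 0.898 CPM. It was 15.9-fold higher in rat tail collagen (log2 3.99, SE 0.553). Only 9 counts lie behind the bovine value, and the ratio of counts was 15.8 with a counting interval of 8.16 to 35.2. Chac1 was at 0.530, 0.793 and 0.433 CPM in bovine collagen and 8.04-fold higher in rat tail collagen (log2 3.01, SE 0.320, adjusted p = 1.25e-05). Atf5 was at 7.42, 6.70 and 7.03 CPM in bovine collagen and 1.81-fold higher in rat tail collagen (adjusted p = 2.19e-05). No group of these 3 genes overlapped the other.

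Smaller differences were measured for the other 4 called genes. Sesn2 was at 18.7, 19.0 and 22.3 CPM in bovine collagen, a log2 difference of 0.50 (adjusted p = 0.00857). Ddit3 was at 7.03, 7.78 and 7.82 CPM, a difference of 0.34 (adjusted p = 0.0160). Ddit4 was at 106, 95.5 and 83.5 CPM, a difference of 0.31 (adjusted p = 0.0392), and Atf4 was at 90.7, 83.2 and 75.8 CPM, a difference of 0.29 (adjusted p = 0.0427). In all 4 genes the groups did not overlap, as was true of 63.8% of all genes tested. The gap was narrow for Ddit4, with the lowest rat tail library at 106.1 CPM and the highest bovine library at 105.8 CPM. For Atf4 these were at 91.2 and 90.7 CPM. The calls of Atf4, Ddit4 and Ddit3 lay near the threshold. Atf4 lost its call without bovine collagen 2 (log2 0.29, adjusted p = 0.0996), where the difference itself was as large, without bovine collagen 3 (0.22, adjusted p = 0.144) and without rat tail collagen 3 (0.15, adjusted p = 0.186). Ddit4 lost its call without bovine collagen 2 (0.31, adjusted p = 0.0890), bovine collagen 3 (0.22, adjusted p = 0.141), rat tail collagen 1 (0.26, adjusted p = 0.120) or rat tail collagen 2 (0.28, adjusted p = 0.113). Ddit3 lost its call without bovine collagen 1 (0.28, adjusted p = 0.0720). Other losses were Atf4 in the blocked fit of these 6 libraries (0.30, adjusted p = 0.0565), Ddit4 with all 12 libraries in 1 fit (0.32, adjusted p = 0.0893) and Ddit3 without a filter (0.30, adjusted p = 0.0934). With the GC and length offsets Sesn2 was at 0.05 (adjusted p = 0.790), Ddit4 at -0.04 (adjusted p = 0.749), Atf4 lost its call (adjusted p = 0.997) and Ddit3 stayed called at 0.42. Without the 3 libraries of highest ribosomal RNA share, which leaves 1 rat tail library, Ddit3 was at 0.35, Ddit4 at 0.37, Sesn2 at 0.36 and Atf4 at 0.13, and none of these was called (adjusted p = 0.212, 0.196, 0.168 and 0.542). The first 2 differences were thus about as large or larger than with all libraries.

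Of the 3 genes not called, Trib3 was at 20.9, 23.1 and 28.4 CPM in bovine collagen, a log2 difference of -0.54 with an interval of -1.13 to 0.06 (adjusted p = 0.115). Without rat tail collagen 3 the Trib3 difference was -0.98 (adjusted p = 5.24e-04). Asns was at 24.2, 19.5 and 17.2 CPM in bovine collagen (log2 0.30, adjusted p = 0.135) and Psat1 at 127, 117 and 98.7 CPM (0.19, adjusted p = 0.247). All 3 genes overlapped between the gels. Asns was called higher without bovine collagen 1, at 0.44 (adjusted p = 0.0435). Scaled to library totals, which moves the median of all genes by 0.14, Asns was called at 0.44 (adjusted p = 0.0178) and Psat1 at 0.33 (adjusted p = 0.0346).

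**Figure D3:**
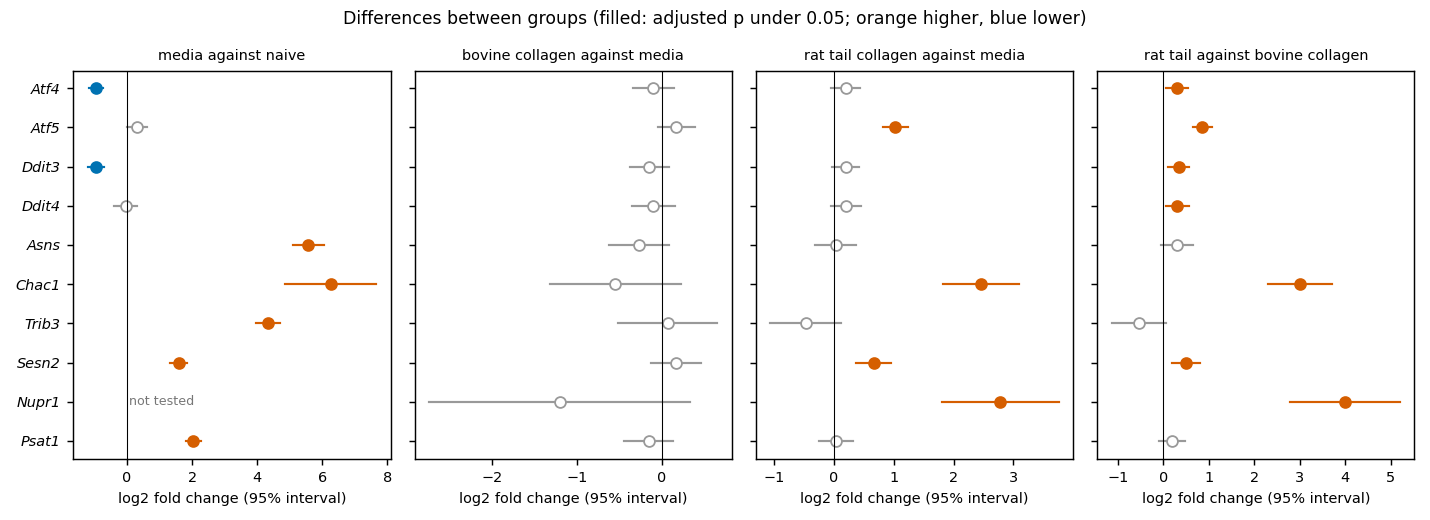
Log2 fold change with its 95% interval (horizontal axis) of each of the 10 genes (vertical axis) in each comparison, filled where the adjusted p was under 0.05; the panels have axes of different width. The rat tail panels show Chac1 and Nupr1 farthest to the right and Trib3 alone to the left of 0, while all intervals of bovine collagen against media include 0.

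Bovine collagen against media asks the same of the other gel. None of the 10 genes was called at an adjusted p under 0.05 by edgeR, limma-voom or DESeq2, and none had an unadjusted p under 0.05 by edgeR. Over all genes edgeR called 0.0206% of those tested (4 higher and 0 lower), and 4.18% had an unadjusted p under 0.05. The log2 differences of Atf4, Ddit3, Ddit4, Asns, Trib3, Psat1, Sesn2 and Atf5 lay between -0.27 for Asns and 0.17 for Atf5. Chac1 was at -0.55 with a wide interval of -1.32 to 0.22. Nupr1 was at -1.21 with an interval of -2.75 to 0.34, and its 3 bovine libraries (0.112, 0.119 and 0.0509 CPM) were below its 3 media libraries (0.172, 0.277 and 0.192 CPM), a lack of overlap shared by 8.78% of all genes. The rat tail and bovine comparisons with media share the media libraries. The values for Chac1 were 2.46 and -0.55, for Nupr1 2.78 and -1.21, for Atf5 1.03 and 0.17, for Sesn2 0.66 and 0.17 and for Trib3 -0.47 and 0.07.

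Between media and bovine collagen, deviations from the group means correlated at 0.586 for number 1, 0.108 for number 2 and 0.655 for number 3. No source states a pairing. The number was also fitted as a block in these 6 libraries, a fit added after the data were seen. Asns was then called lower in bovine collagen at -0.27 (95% interval -0.38 to -0.15, adjusted p = 0.00963) and Psat1 at -0.15 (interval -0.24 to -0.07, adjusted p = 0.0437). In that blocked fit 2.08% of all genes were called higher and 1.64% lower, and Nupr1 was too low to test. The levels by number show the same order: Asns was 28.1, 24.7 and 20.7 CPM in media 1, 2 and 3 and 24.2, 19.5 and 17.2 CPM in bovine collagen 1, 2 and 3. In 7 genes (Atf4, Ddit3, Ddit4, Asns, Chac1, Nupr1 and Psat1) bovine collagen was below the media library of its number in 3 of 3 pairs. Sesn2 and Atf5 were above it in all pairs, and Trib3 was below it in 1 pair. The pairs were not counted over all genes, so no result about these 10 genes follows from these counts. A block over all 9 day 4 libraries called none of the 10 genes between bovine collagen and media.

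**Figure D4:**
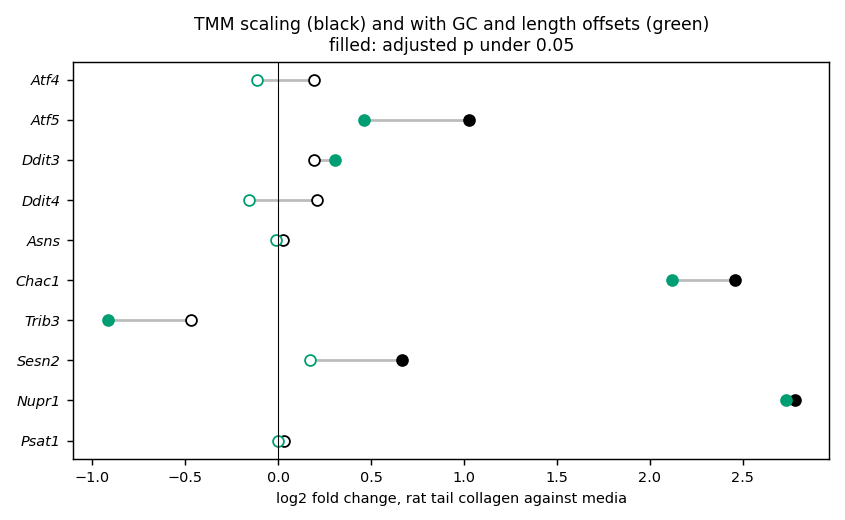
Log2 fold change of the 10 genes in rat tail collagen against media, with TMM scaling alone (black) and after GC content and length were fitted in each library (green), filled where the adjusted p was under 0.05. Chac1 and Nupr1 keep differences above 2, Atf5 moves from 1.03 to 0.46, Sesn2 from 0.66 to 0.17 and Trib3 from -0.47 to -0.92.

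The wider pathway was read from lists of genes known from the literature, grouped by role. Of 56 other ATF4 targets, 51 could be tested in rat tail collagen against media. Of these 22 were higher and 10 lower, beside 29.7% and 28.7% of all genes. Their median log2 difference was 0.27 beside -0.01 for all genes. The 22 include Cbs, Nupr1l and Ddit4l, which passed the filter on low counts only through their rat tail libraries, so they had to differ. Cbs and Nupr1l are also among the genes called higher against bovine collagen. Against bovine collagen 25 were higher and 10 lower, beside 28.4% and 26.4% of all genes, and in media against naive cells 30 of 49 were higher and 7 lower, beside 31.6% and 29.2%. The pathway lists together hold these targets and the sensing and folding genes. None of their 111 genes tested was called in bovine collagen against media by the main edgeR test, which used no block. Of the 111, 5 had an unadjusted p under 0.05. Over all genes these shares were 0.0206% and 4.18%. The lists were not read in the blocked fit of 6 libraries.

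The lists are given by role for rat tail collagen against media, where 29.7% of all genes tested were higher and 28.7% lower. No test compares the lists with each other or with that share. Of 12 aminoacyl-tRNA synthetases and tRNA export factors, 5 were higher and 0 lower (median 0.23). Cars, which charges cysteine tRNA, went from 27.8 ± 1.97 CPM in media to 64.9 ± 16.2 CPM in rat tail collagen (SD, n = 3; log2 1.21, adjusted p = 2.24e-05). Xpot, a tRNA exporter, rose by 0.97 and Aars, which charges alanine tRNA, by 0.64 (adjusted p = 9.32e-05 and 3.93e-04). None of the 12 was called lower in any of the 4 comparisons.

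Amino acid transporters split, with 6 of 10 higher and 3 lower (median 0.57). The glycine transporter Slc6a9 went from 1.28 ± 0.199 to 31.0 ± 2.61 CPM (SD, n = 3; log2 4.59, adjusted p = 1.03e-09). Slc38a2, a transporter of small neutral amino acids, rose by 1.09 (adjusted p = 4.80e-07), and Slc43a1, a transporter of large neutral amino acids, changed by -1.35 (adjusted p = 5.59e-06). Of 17 genes of amino acid and one-carbon synthesis, 7 were higher and 4 lower (median 0.28). Cbs, the first enzyme of the transsulfuration route from homocysteine to cysteine, went from 0.173 ± 0.112 to 2.96 ± 0.434 CPM (log2 4.09). Cbs passed the filter on low counts only through its rat tail libraries, so it had to differ. Glul, which makes glutamine, and Ass1, an enzyme of arginine synthesis, fell by 1.04 and 1.36 on the log2 scale (adjusted p = 1.12e-07 and 2.65e-06).

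Of 12 transcription, translation and secreted targets, 4 were higher and 3 lower (median 0.06). Trib2, a relative of Trib3, went from 36.1 ± 3.38 to 3.96 ± 0.654 CPM (log2 -3.20, adjusted p = 9.20e-09). Stc2, a secreted glycoprotein, changed by -1.92 (adjusted p = 5.36e-05). Nupr1l, a relative of Nupr1, went from 0.171 ± 0.0780 to 0.948 ± 0.0966 CPM (log2 2.41). Nupr1l and Ddit4l, both among the 4 higher genes, passed the filter only through their rat tail libraries, so they had to differ.

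Upstream, 4 of 16 genes of the eIF2α kinases and their control were higher and 3 lower (median 0.06). Eif2ak3, which encodes PERK, went from 116 ± 12.2 to 243 ± 15.7 CPM (SD, n = 3; log2 1.06, adjusted p = 1.98e-06). Gcn1, the partner of GCN2, rose by 0.42 (adjusted p = 6.87e-04), and Ppp1r15b, a subunit of the phosphatase that reverses eIF2α phosphorylation, changed by -0.37 (adjusted p = 3.05e-04). These are mRNA levels, and phosphorylation was not measured.

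The list that holds the mTORC1 amino acid sensors and brakes, to which Sesn2 and Ddit4 are linked by function, had 10 of 19 higher and 4 lower (median 0.36). The Rag GTPases Rragd and Rraga rose by 3.88 and 0.82 (adjusted p = 3.06e-09 and 1.18e-05), and Rptor, the scaffold of mTORC1, changed by -0.91 (adjusted p = 2.04e-06). The Rag GTPases split, as Rragb was at -0.70 (adjusted p = 5.30e-04) and Rragc at -0.03 (adjusted p = 0.734). Of 9 genes of glutathione breakdown and supply, partners of Chac1, 2 were higher and 3 lower (median -0.15). Oplah, which clears the 5-oxoproline that Chac1 releases, went from 2.37 ± 0.491 to 7.60 ± 1.34 CPM (log2 1.67, adjusted p = 3.19e-05). Ggt7, of the gamma-glutamyltransferase family, rose by 1.38 (adjusted p = 5.36e-06), and Gclc, which catalyses the first step of glutathione synthesis, changed by -0.53 (adjusted p = 2.37e-04).

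The ATF6 and IRE1 branches of the unfolded protein response had 5 of 16 higher and 5 lower (median 0.10). Xbp1, the target of IRE1, went from 53.9 ± 6.25 to 127 ± 22.8 CPM (SD, n = 3; log2 1.23, adjusted p = 7.58e-06), while Atf6 and the chaperone Dnajc3 fell by 0.83 and 0.76 on the log2 scale (adjusted p = 5.09e-06 and 2.04e-05).

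**Figure D5:**
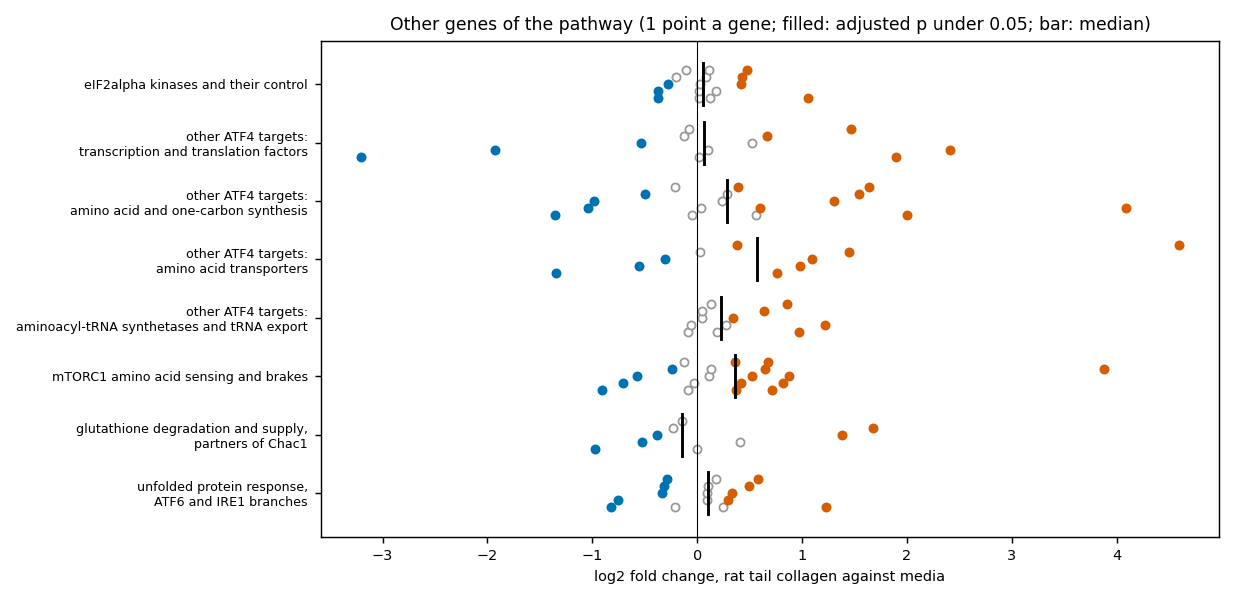
Log2 fold change in rat tail collagen against media (horizontal axis) of the genes of each pathway list (1 row a list, 1 point a gene, filled where the adjusted p was under 0.05, bar at the median). The tRNA synthetase row has no filled point to the left of 0, while the unfolded protein response row has 5 on each side.

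The members varied together in groups, given here as descriptions over libraries that share their groups. Over the 9 day 4 libraries, Pearson's r of log2(CPM + 0.5) was 0.978 for Chac1 and Nupr1, 0.968 for Asns and Psat1 and -0.819 for Trib3 and Ddit4. Atf4 and Asns had r = 0.882 over the 9 day 4 libraries but -0.895 over all 12, where the naive libraries hold high Atf4 and low Asns. Atf4 and Ddit3 had r = 0.948 over the 12.

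The genes most like each member over the 12 libraries were found among 9732 genes by the same measure. Nupr1 was most like Cars (r = 0.960), Dnmt3b and Iars, and of these Cars and Iars are aminoacyl-tRNA synthetases. Psat1 was most like Txn1, Zbtb32 and Asns, and Asns was most like Txn1 (r = 0.997) and St14. Chac1 was most like Rilpl1 (r = 0.989), Fsd1l and Slc39a4, Atf5 like Cul4a (r = 0.993), Gtf2ird1 and Slc4a11, and Trib3 like Tns1 (r = 0.998), Ighj1 and Hmgn5. Sesn2 was most like Lzts2, Zmat3 and Mast2, Atf4 like Wdr46, Bms1 and Nsfl1c, and Ddit3 like Jun, Leng9 and Nprl3. Ddit4 was most like Colgalt1 at r = 0.888, then Faap20 and Nol12, and had no gene over 0.9, whereas Asns had 1180. With 4 groups behind the 12 libraries, the points behind each value share their groups.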

How the data were processed

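RNA of mouse CD8+ T cells was depleted of ribosomal RNA and sequenced, per the labels' protocols (150 ng of RNA, with a DNase step). The authors deposited raw counts per gene symbol for the 12 libraries. Per the submitters' processing notes, the tools were featureCounts, HISAT2, Picard, SAMtools, MultiQC and FastQC, with the builds mm10 and GRCm38. Tool versions, the annotation and the strand setting: not given in the sources used here.

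Counts were tested with edgeR 4.0.16 in R 4.3.3: filterByExpr, TMM, robust quasi-likelihood fits, F tests and Benjamini-Hochberg adjustment over all genes tested. The 9 day 4 libraries shared 1 fit, and media and naive another of 6 libraries. SE is the size of the log2 fold change divided by the root of F, and 95% intervals use the t distribution. CPM was scaled over 12 libraries. Alternatives used DESeq2 1.42.0, limma 3.58.1 (voom), other scalings and filters, GC and length offsets (values known for 97.4% of genes), left-out libraries and a replicate block, the block within 6 libraries being added after the data were seen. The scripts were tested on simulated data. The 10 genes and all lists were chosen with earlier results of these data known; named pathway genes are the 3 of smallest adjusted p of each list in rat tail collagen against media, and named alike genes the 3 of highest r, of which 1 is not reported here. The list symbols Gcn1l1 and Mars were not matched to the table. Promoter sequences came from RefSeq (GRCm38.p6), with all 10 genes matched, and locations from GENCODE M21.

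Deviations from group means of same-numbered libraries correlated at 0.586, 0.108 and 0.655 between media and bovine collagen. The numbers were therefore treated as pairs there in the added block fit of 6 libraries and in the counts of pairs. The main test of that comparison used the group only, without a block. No source states a pairing. Counts of 1 library limit precision by counting error, which the count ratios' intervals cover.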

Additional observations from a re-analysis of the deposited data

How the results depend on the processing

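Across the alternatives, 707 of 747 recomputed differences of the 10 genes kept their side of the threshold, 18 lost their call and 21 gained one. The sign changed in 17: 16 were called neither before nor after, among them Asns and Psat1 in rat tail collagen against media in 5 settings each and Atf4 and Ddit4 there with the GC and length offsets. The other was Ddit4 in rat tail against bovine collagen, called in the main setting and at -0.0428 with the offsets; the cause was not tested. Chac1 and Atf5 stayed called in both rat tail comparisons under every alternative. Nupr1 was called in both rat tail comparisons wherever it was tested there. It passed the filter only through its rat tail libraries, so this says nothing of stability. The filter of 1 CPM in 3 libraries gave no value for it. In rat tail collagen against media, 1 of the 10 genes was lower (Trib3) with the replicate block over 9 or 6 libraries, and 1 with the offsets. In rat tail against bovine collagen, 1 was lower (Trib3) with limma-voom, with either block and with the offsets, where 4 were higher. Without the 3 libraries of highest ribosomal RNA share, 1 was lower in each of these comparisons, 3 were higher against bovine collagen, and all genes numbered 3819 higher and 2907 lower against media and 3079 and 2406 against bovine collagen; fewer libraries were fitted. Scaling by library totals called all genes lower in 3221 against bovine collagen and moved their median by 0.14. In bovine collagen against media, all genes higher and lower were 15 and 7 by DESeq2 and 21 and 18 without a filter; 3 were lower with library totals, and 2 were higher in a fit of 6 libraries, 1 without the 3 libraries. With the replicate block 7 were higher over 9 libraries, and 373 higher and 294 lower over 6, where 2 of the 10 genes were lower. Leaving out 1 library at a time gave 4 to 5 higher and 0 to 1 lower of the 10 genes against media, 5 to 7 and 0 to 1 against bovine collagen, and 2 to 5 higher of all genes in bovine collagen against media, 2 being without media 2. Between rat tail collagen and media the numbers did not pair by the rule (0.0814, 0.0874 and 0.115), although each library correlated best with its own number; the replicate block called Trib3 (-0.54, adjusted p = 0.0163) and Ddit4 (0.21, adjusted p = 0.00804). Depth limits Nupr1 and Chac1.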

Other observations

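Relatives of the 10 genes were read side by side after their values had been seen. Of the sestrins, Sesn1 was at 75.7 ± 12.2 CPM in media and at 124.9 ± 7.01 CPM with rat tail collagen (SD, n = 3; log2 0.71, adjusted p = 0.00169), and Sesn3 at 311 ± 32.3 and 499 ± 40.2 CPM (log2 0.67, adjusted p = 5.27e-04). Unlike Sesn2, neither passed the test in media against naive cells (log2 0.17 and 0.05, adjusted p = 0.202 and 0.706). The difference between the sestrins was not tested. Of the Tribbles pseudokinases, Trib1 rose in media against naive cells (log2 1.31, adjusted p = 5.97e-04) and was at 0.02 in rat tail collagen against media (adjusted p = 0.952), while Trib2 fell by 1.71 and 3.20 on the log2 scale in these comparisons (adjusted p = 2.53e-07 and 9.20e-09).

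Chac2, the other member of the Chac family, was at 3.07 ± 0.571 CPM in media and at 4.11 ± 0.933 CPM with rat tail collagen (log2 0.41, adjusted p = 0.123). Ddit4l, a relative of Ddit4, was at 0 in the 3 naive libraries, 0.122 ± 0.0395 CPM in media and at 0.470 ± 0.167 CPM with rat tail collagen . It passed the filter on low counts only through its rat tail libraries, so its difference (log2 1.90) had to be large and no p is given.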
